A study of Arabidopsis thaliana with 4 samples.

Results

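Transcript levels in the lower flank of horizontally placed Arabidopsis thaliana inflorescence stems were compared between 30 and 10 min of gravistimulation. Each array of the series carried an upper and a lower flank in its 2 colours, and only the lower-flank colour was taken here: Cy5 on replicate 1 and Cy3 on replicate 2 of each time. This gave 4 of the 8 channels, 2 for each time, and a comparison across 18089 genes. The study set the flanks of a stem against each other at each time, while the comparison below asks how the level of each transcript in the lower flank differed between the times.

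A shoot laid on its side bends upward because cells of its lower flank elongate more than those of its upper flank. Starch-filled plastids sediment in the endodermis, auxin carriers such as PIN3 move auxin toward the lower flank, and auxin acts through the TIR1 receptors, which mark Aux/IAA repressors for breakdown and so release ARF transcription factors. Among the first genes that auxin induces are the Aux/IAA genes themselves, the SAUR genes, whose small proteins inhibit PP2C.D phosphatases and thereby keep plasma membrane proton pumps active, GH3 genes, which conjugate auxin, and ACS genes, which make the ethylene precursor.

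All plants were ecotype Col, without a mutation or transgene in the labels. Seeds were kept at 4 °C for 3 days, and seedlings grew in unbroken light at 23 °C for 10 days on plates and then on soil. When primary stems measured 4 to 8 cm, plants were laid down at 23 °C in dim light of no fixed direction for 10 or 30 min, the top 5 mm was cut off, and the next 3 cm was split by hand along its length; 500 ng of total RNA went into each labelling. No upright stem was among the samples, and time on the side, time in dim light and hour of harvest (not given in the sources used here) cannot be told apart. Replicates 1 and 2 are biological according to the labels, but the labelling protocol also has each cRNA labelled with both dyes, so p-values may measure technical spread only.

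Levels are given as normalized log2 intensity, in the order replicate 1 and replicate 2, and changes as 30 min minus 10 min on that scale, ± the standard error (SE) of the limma fit (n = 2 channels per time). A rise or fall was called where the adjusted p of limma (Benjamini-Hochberg over all genes tested) was under 0.05. In the 4 lower-flank channels 18487 to 19553 of 21500 gene probes were well above background, and median raw signals ran from 156 to 333. Markers of the tissues of a stem were well above background in all 4 channels: 10 of 10 for epidermis, 7 of 7 for green cortex, 5 of 5 for phloem, 7 of 7 for xylem and fibre, and both endodermis genes SCR and SHR. Of 6 flower markers AG was not well above background in any channel, PI was in 2, AP1, AP3 and SEP3 lay between 6.01 and 6.41, near the floor of 5.83 to 5.93, and LFY, which rose by 0.44 ± 0.12 (adjusted p = 0.032), lay between 7.35 and 8.02. The root markers PHT1;1 and PIN2 were well above background in all 4 channels, IRT1 in 1, and the pollen marker VGD1, near the floor, in 3. In bulk segments such as these, fewer cells of a type and less RNA per cell cannot be told apart.

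Between 10 and 30 min, 1185 genes rose and 1393 fell in the lower flank (6.55% and 7.70% of those tested, 14.3% together). The largest changes were falls: 114 called genes fell and 10 rose by at least 2-fold, and a fall of at least 1.5 on the log2 scale was called in 32 genes against 1 rise, that of IAA5. Called rises had a median size of 0.43, called falls of -0.46, and no called change was smaller than 0.30. The genes with falls of at least 2-fold had a median level of 10.04 at 10 min and of 8.61 at 30 min.

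The 2525 called genes with a value in every channel had both values of one time on the same side of both values of the other. Genes with groups apart in this way necessarily move the same way within Cy5 and within Cy3, so that is no separate check of the dyes. Over all genes tested the groups were apart in 10557, so non-overlap alone is common here. Counting without a test, 10 genes were at least 2-fold higher and 108 at least 2-fold lower with groups apart (0.0553% and 0.597%), and no gene was as far apart between the dyes. Scaling changed the number and balance of calls: 46.0% of calls were rises, against 34.2% with the deposited processed signals (411 rises and 791 falls), 36.1% with each channel set to its median (249 and 441) and 9.50% with each channel set to its 75th percentile (17 and 162), while all 2578 calls kept their direction under each of these. Without 10 min replicate 1 there were 331 rises and 618 falls, without 10 min replicate 2 765 rises, and without 30 min replicate 1 689 rises.

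**Figure D1:**
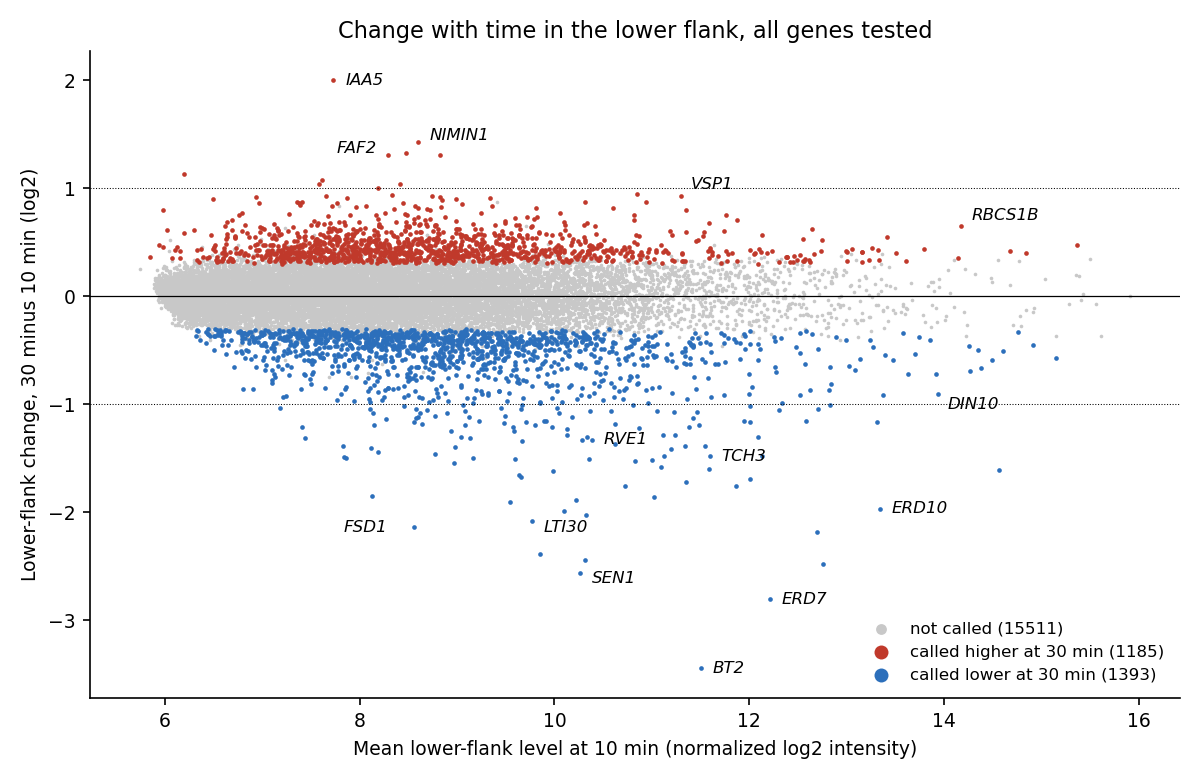
Mean normalized log2 intensity of the lower flank at 10 min (horizontal axis) against its change from 10 to 30 min (vertical axis, log2) for each gene tested. Red points are the 1185 called rises, blue points the 1393 called falls and grey points the 15511 genes not called; dotted lines mark a 2-fold change, and far more points lie below the lower line than above the upper one (114 called falls against 10 called rises).

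The largest rise was that of IAA5 (AT1G15580), an Aux/IAA repressor that auxin induces, read by a probe at chromosome 1, 5365771 to 5365918 (genome build not given in the sources used here). Its level was 7.71 and 7.76 at 10 min and 9.86 and 9.61 at 30 min, a change of 2.00 ± 0.11 (4.01-fold, adjusted p = 3.2e-07). The groups were far apart, and the change was similar in each dye, 2.15 within Cy5 and 1.85 within Cy3. A second Aux/IAA gene, IAA6, rose from 8.33 and 8.35 to 9.39 and 9.16 (0.94 ± 0.10, adjusted p = 1.2e-04).

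ACS4, an ACC synthase of ethylene synthesis, rose from 6.11 and 6.29 to 7.23 and 7.42, a change of 1.13 ± 0.11 (adjusted p = 3.5e-05). Its level at 10 min was near the floor, and its call was lost in 1 of 16 alternative settings. Over these settings the change of ACS4 ran from 1.00 to 2.48, and that of IAA5 from 1.88 to 2.34. The size of the ACS4 rise, and whether IAA5 rose most, thus depended on the processing. AT5G66580, which has no symbol and no described function on the array, had 8.31 and 8.28 at 10 min and 9.59 and 9.62 at 30 min (1.31 ± 0.09, adjusted p = 3.3e-06).

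Other leading rises were of genes outside auxin response. NIMIN1, whose protein binds the salicylic acid regulator NPR1, went from 8.52 and 8.67 to 10.12 and 9.94 (1.43 ± 0.10, adjusted p = 4.0e-06). FAF2, of a small family that limits shoot meristem size, changed by 1.32 ± 0.10, and AT5G37970, of a carboxyl methyltransferase family, by 1.31 ± 0.09. Others among the leading 15 made defence compounds or lectins (FMO GS-OX3, 1.04, of glucosinolate synthesis; JAL23, 1.08, a jacalin lectin), stored protein (VSP1, 0.93), or belonged to the ribosome and nucleolus (AT2G32220, 1.04, a ribosomal protein L27; FIB2, 0.92, a fibrillarin) and to plastids under light stress (ELIP2, 0.92).

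A pair of the leading rises rested on replicates that disagreed at 10 min. AT1G69050, of no described function, had 7.63 and 8.75 at 10 min and 9.20 and 9.19 at 30 min, so that its change was 1.57 within Cy5 and 0.44 within Cy3. AT3G24480, of the leucine-rich repeat extensins, had 8.22 and 9.27 and then 9.72 and 9.62, with 1.5 within Cy5 and 0.35 within Cy3. Both passed (adjusted p = 0.018 and 0.021), but in 10 and 9 of 16 alternative settings only.

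The largest fall was that of BT2 (AT3G48360; probe at chromosome 3, 17919496 to 17919555, build not given in the sources used here), a BTB and TAZ domain protein of nutrient and hormone responses. Its level was 11.53 and 11.48 at 10 min and 8.04 and 8.08 at 30 min, a change of -3.45 ± 0.09 (10.9-fold lower, adjusted p = 1.7e-09). The replicates of a time lay close together, and no other gene had a smaller adjusted p. ERD7, an early gene of the response to dehydration, fell from 12.19 and 12.24 to 9.49 and 9.33 (-2.81 ± 0.10, adjusted p = 1.9e-08). SEN1 (AT4G35770, also DIN1), a gene known for its induction in darkness and senescence, fell from 10.32 and 10.21 to 7.76 and 7.63 (-2.57 ± 0.10, adjusted p = 2.6e-08).

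Among the other 12 of the 15 largest falls were 4 genes of cold and dehydration protection: the dehydrins LTI30 (-2.08) and ERD10 (-1.97), LTI78 (-2.02, also RD29A) and LEA14 (-1.86). FSD1, an iron superoxide dismutase of plastids, fell from 8.60 and 8.52 to 6.41 and 6.42 (-2.14 ± 0.09). AT1G80440, a kelch repeat F-box gene, changed by -2.39, the glycine-rich protein gene GRP3S by -2.44, and AtIPCS1, an inositol phosphorylceramide synthase of sphingolipid metabolism, by -1.99. The others had no described function or only a domain (AT2G20670, -2.48; AT2G23120, -2.19; AT1G49500, -1.91; AT4G18280, -1.89). All 15 falls were called in each of the 16 alternative settings.

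**Figure D2:**
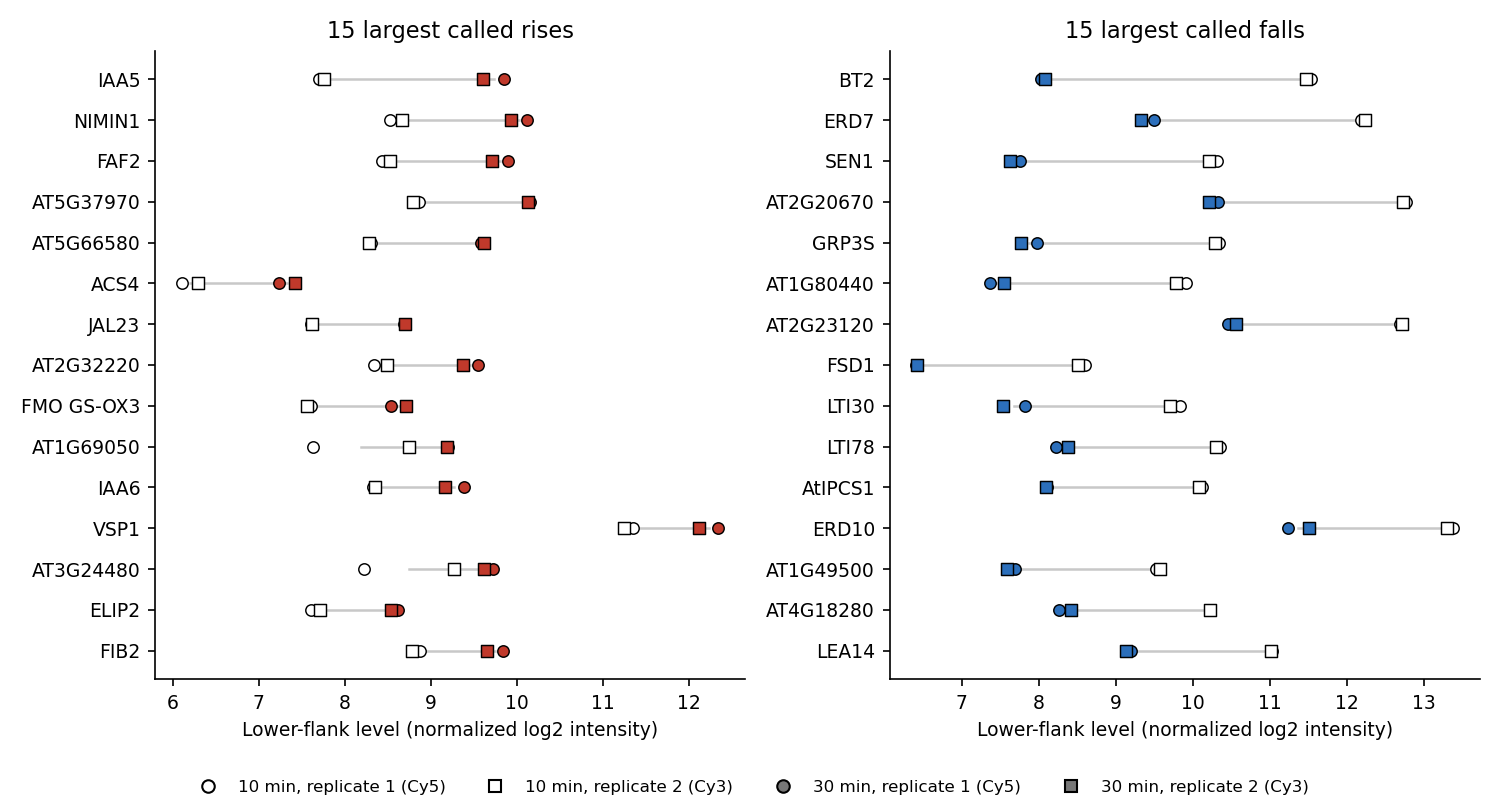
Normalized log2 intensity in the lower flank (horizontal axis) of the 15 largest called rises and 15 largest called falls. Circles are replicate 1 (Cy5) and squares replicate 2 (Cy3), open at 10 min and filled at 30 min, and grey lines join the means; open and filled symbols lie apart for every gene, widely so for BT2 and IAA5, and the open symbols of AT1G69050 and AT3G24480 lie far from each other.

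Calls among auxin response genes went both ways within families. The lists described from here on are counted against 6.55% rising and 7.70% falling among all genes tested, and their medians against 0.02 for all genes. The lists were chosen with earlier results of these data known, so their counts and medians are descriptions only. Of 24 tested Aux/IAA genes 3 rose and 3 fell, with a median change of -0.07. The rises were IAA5, IAA6 and IAA19, the last at 9.79 at 10 min (replicate 2 alone, replicate 1 being an outlier spot) and 10.44 and 10.59 at 30 min (0.72 ± 0.13, adjusted p = 0.0035). The falls were those of IAA7 (10.83 and 10.95, then 10.17 and 10.46; -0.57 ± 0.11), IAA26 (-0.42) and IAA4 (-0.38). None of these 3 falls was called with the processed signals or with scaling to the median or the 75th percentile.

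Of 56 tested SAUR genes 4 rose (7.14%, near the share of all genes) and 8 fell (14.3%), with a median of -0.07. SAUR25 (AT4G13790) rose most, from 7.32 and 7.43 to 8.30 and 8.18 (0.86 ± 0.10, adjusted p = 1.5e-04). SAUR19 (AT5G18010; probe at chromosome 5, 5963107 to 5963166, build not given in the sources used here) rose from 9.25 and 9.30 to 9.90 and 9.78 (0.57 ± 0.10, adjusted p = 0.0025). Its neighbours on chromosome 5 are near-identical copies whose probes may share transcripts, so their values are not independent: SAUR23 rose by 0.46 and SAUR22 by 0.31 (adjusted p = 0.049, called in 4 of 16 alternative settings), SAUR24 had 0.32 (adjusted p = 0.051) and SAUR20 0.14 (adjusted p = 0.40). AT5G18030 of the same cluster, outside the list because its symbol is not paired with it in the table of names, rose by 0.49 (adjusted p = 0.005).

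The SAUR falls were led by SAUR36, a gene known from leaf senescence. It fell from 8.15 and 8.06 to 7.07 and 7.05 (-1.05 ± 0.09, adjusted p = 2.3e-05), and the falls of SAUR59 (AT3G60690, -0.53), SAUR78 (AT1G72430, -0.49), SAUR72 (AT3G12830, -0.48), SAUR50 (AT4G34760, -0.42), SAUR16 (AT4G38860, -0.37), SAUR32 (AT2G46690, -0.36) and SAUR52 (AT1G75590, -0.33) were smaller. With scaling to the 75th percentile no SAUR rise and 1 SAUR fall was called.

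Of 13 other early auxin genes 2 rose and 1 fell: HAT2, a homeodomain leucine zipper factor, went from 8.73 and 8.66 to 9.30 and 9.13 (0.52 ± 0.10, adjusted p = 0.0049), and PRE1, a helix-loop-helix growth regulator, changed by 0.40 ± 0.10. The fall was of GH3.6 (DFL1), which conjugates auxin (-0.70 ± 0.10, adjusted p = 6.7e-04). GH3.3 read 9.09 and 9.25 at 10 min and 9.12 and 9.21 at 30 min, with no call (adjusted p = 0.98).

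Of 25 genes of auxin transport 4 rose, among them the kinase gene PID (0.44 ± 0.10), the intracellular carrier gene PILS5 (AT2G17500, 0.38) and the influx carrier LAX2 (0.37), and the kinase gene D6PKL1 fell (-0.38). PILS5 was called in 7 and LAX2 in 8 of 16 alternative settings. PIN3, the carrier of gravity responses in the endodermis, read 9.81 and 9.88 and then 9.45 and 9.62 (-0.31 ± 0.10), just short of the threshold (adjusted p = 0.057). Of 11 receptor and ARF genes TIR1 fell (-0.38), and of 10 genes of gravity sensing in shoots SGR5, a zinc finger factor, fell (-0.41). Among 14 genes of acid growth the phosphatase gene AT5G02760 alone was called, with 7.81 and 7.88 at 10 min and 8.57 and 8.45 at 30 min (0.66 ± 0.10, adjusted p = 9.0e-04).

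Gibberellin genes included 4 rises and no fall among 20 tested. GA20OX1 and GA3OX1, successive enzymes that make active gibberellin, rose by 0.54 ± 0.11 (adjusted p = 0.0055) and 0.65 ± 0.10 (adjusted p = 0.0011). RGL1, a DELLA repressor of gibberellin response, rose from 9.76 and 9.86 to 10.76 and 10.49 (0.81 ± 0.11), and GASA6 by 0.48. None of the 4 was called with scaling to the 75th percentile, and the list median was near 0 and changed sign in 5 of 16 settings.

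In the brassinosteroid list 2 of 16 rose and 5 fell. The synthesis genes CPD (-0.47 ± 0.10), DWF4 (-0.46 ± 0.11) and ROT3 (-0.33 ± 0.10) fell, as did the signalling genes BKI1 (-0.40) and BZR1 (-0.37), while BR6OX2, the last step of synthesis, rose by 0.45 ± 0.10. BAS1, which inactivates brassinosteroids, rose by 0.88 ± 0.21, with 10 min replicates at 6.96 and 7.86. Without 10 min replicate 1 none of the 16 was called.

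Of 15 ethylene genes 3 rose and 3 fell. Besides ACS4 the rises were RTE1 (0.40), a partner of the receptor ETR1, and ACS8, a further ACC synthase that was not well above background on either 10 min array. ACS8 read 5.90 and 5.98 at 10 min and 6.39 and 6.45 at 30 min (adjusted p = 0.0063). That is at least 1.39-fold higher in these normalized values against the higher of each 10 min floor and the probe's own signal. With scaling to the 75th percentile its change was 0.38 without a call (adjusted p = 0.57). Over the 15 alternative settings that tested ACS8 its change ran from 0.38 to 1.79, with a call in 12, so its size is uncertain. The falls, between -0.39 and -0.35, were of the receptor gene ERS2 and of EBF1 and EBF2, whose F-box proteins remove the ethylene factor EIN3. Of 10 cytokinin response regulators 4 of the A type fell, ARR6 and ARR9 (each -0.43), ARR7 (-0.42) and ARR5 (-0.34), and none rose.

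Of 29 tested genes of the response to darkness and sugar starvation 17 fell (58.6%), 1 rose and 11 were not called, with a list median of -0.48. After SEN1 the largest fall was of ASN1 (DIN6), an asparagine synthetase induced by darkness, from 9.58 and 9.69 to 7.90 and 8.06 (-1.66 ± 0.10, adjusted p = 1.1e-06). TPS8, of the trehalose phosphate synthase family, followed with -1.34 ± 0.12, and 2 enzymes of branched-chain amino acid breakdown with BCE2 at -1.20 and BCAT-2 at -1.18.

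The other falls of this list covered sugar transport, autophagy and signalling. STP1, a sugar transporter, read 12.55 and 12.62 at 10 min and 11.43 at 30 min (replicate 2 alone; -1.16 ± 0.12). EXL2 (-1.12), the galactosidase BGAL4 (-1.12), the transcription factor bZIP1 of low-energy responses (-1.06), the autophagy gene ATG8E (-1.0), DIN10 (-0.91), the SnRK1 subunit AKINBETA1 (-0.89), MYBL2 (-0.86) and DYL1 (-0.86) lay close together, and XTH24 (-0.48), TPS9 (-0.46) and DIN4 (-0.44) fell less. The rise was of GBF6 (bZIP11), a factor whose translation sucrose represses, from 8.69 in both replicates to 9.45 and 9.22 (0.65 ± 0.10). With scaling to the 75th percentile 11 of the 29 were still called lower and none higher.

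BT2 led the falls of a list of nitrate and BT genes, of which 9 of 23 fell and 1 rose (median -0.20). Its relatives BT5 (11.43 and 11.50, then 10.47 and 10.32; -1.07 ± 0.10) and BT4 (-0.84 ± 0.10) also fell. LBD39 and LBD37, repressors of nitrate responses, changed by -1.13 ± 0.09 and -0.99 ± 0.10. The xylem nitrate transporter gene NRT1.5 (-0.66), the nitrate factor gene NLP7 (-0.41), the transporter gene NRT1:2 (-0.37) and the nitrate reductase gene NIA1 (-0.33, adjusted p = 0.041) fell less, and NRT1.1, the nitrate transporter and sensor, rose by 0.60 ± 0.10 (adjusted p = 0.0023). Called falls numbered 6 without either 10 min replicate and 4 with scaling to the 75th percentile.

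In the list of abscisic acid and dehydration 8 of 22 fell and 1 rose (median -0.14). Of the 8 falls 7 were of genes of cold and dehydration protection: beside ERD7, LTI78 and ERD10 these were KIN2 (12.75 and 12.65, then 11.67 and 11.65; -1.04 ± 0.10), COR15B (-0.98), COR47 (-0.92) and LTI65 (-0.70, also RD29B). AAO3, the last enzyme of abscisic acid synthesis, fell by 0.41, and NCED5, of an earlier step, rose from 6.04 and 6.01 to 6.65 and 6.64 (0.61 ± 0.09, adjusted p = 0.0011), near the floor. The phosphatase genes ABI1, ABI2, HAI1 and HAB1 of abscisic acid signalling were in the list and not among the calls.

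Clock genes fell more often than they rose: 11 of 26 fell and 1 rose (median -0.28). RVE1, a MYB factor that links the clock to auxin synthesis, fell from 10.42 and 10.35 to 8.97 and 9.15 (-1.33 ± 0.10, adjusted p = 5.6e-06). The pseudo-response regulators PRR5 (-0.97 ± 0.10), PRR7 (-0.89 ± 0.10), TOC1 (-0.56 ± 0.10) and PRR3 (-0.42 ± 0.10) fell, while PRR9, also in the list, was not among the calls. Evening genes PCL1 (-0.95, also LUX), GI (-0.51) and ELF3 (-0.39) and the LNK genes AT3G12320 (-0.85, LNK3) and AT5G64170 (-0.42, LNK1) fell as well. The morning partners differed, with CCA1 at 8.81 and 8.79 and then 8.34 and 8.38 (-0.44 ± 0.09) and LHY at 9.47 and 9.49 and then 9.87 and 9.95 (0.43 ± 0.09, adjusted p = 0.011). Called falls numbered 7 without 10 min replicate 1, 6 with scaling to the median and 4 with scaling to the 75th percentile.

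In the list of light signalling 12 of 37 fell and 5 rose (median -0.09). PIF5 (PIL6, 8.1 and 8.07, then 7.26 and 7.16; -0.88 ± 0.10) and PIF4 (-0.84 ± 0.10), growth-promoting factors that phytochrome holds down, fell. Photoreceptor genes PHYA (-0.44), CRY2 (-0.44) and CRY1 (-0.39), the UV-B regulator RUP1 (-0.61) and the phytochrome substrates PKS4 (-0.48) and PKS1 (-0.37) fell by smaller amounts. All 5 rises were of light- or UV-induced genes: ELIP2 (0.92 ± 0.10), ELIP1 (0.83 ± 0.10), and the flavonoid enzymes FLS1 (0.91 ± 0.10), F3H (0.84 ± 0.10) and CHS (TT4, 0.77 ± 0.11). The rises numbered 5 in each setting that left out a channel and the falls 6 without 10 min replicate 1, while scaling to the 75th percentile left 1 of either.

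Several gene groups were taken from words in the array's own descriptions after values had been seen, and their counts are descriptions only. In the B-box zinc finger group, which includes CONSTANS-like factors of light and flowering, 10 of 27 were called, all lower: COL5 fell from 10.89 and 10.75 to 9.32 and 9.28 (-1.52 ± 0.10), BBX16 changed by -1.49 and BBX17 by -1.25. Of 15 genes of trehalose metabolism 7 fell and none rose, among them TPS8 and TPS10 (-0.91). In the group of starch breakdown 4 of 10 fell, led by the plastid beta-amylase CT-BMY (10.01 and 9.95, then 8.23 and 8.49; -1.62 ± 0.11), and BAM5 rose (0.65). Of 46 kelch F-box genes 5 fell and 3 rose, the falls including AT3G59940 (-1.73 ± 0.10) and AT2G44130 (-1.52 ± 0.12) beside AT1G80440. Of 30 dehydrin and late embryogenesis abundant genes 9 fell and none rose.

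Of 42 tested photosynthesis genes 22 fell (52.4%), each of these by less than 2-fold, 1 rose and 19 were not called, and the list median was -0.39. LHCB2.3, of the light-harvesting complex, fell from 11.71 and 11.77 to 10.82 and 10.83 (-0.92 ± 0.09, adjusted p = 6.4e-05). LHCB2.2 (-0.80), LHCB4.2 (-0.68), LHCA4 (-0.67) and the photosystem I subunit gene PSAD-2 (-0.64) were next, and 5 of the 7 green cortex markers were among the falls. RBCS1B, a small subunit of Rubisco, rose from 14.13 and 14.23 to 14.84 and 14.82 (0.65 ± 0.10, adjusted p = 9.2e-04). Members of the LHCB2 group share sequence, so their probes may share transcripts. The count of falls was 14 without 10 min replicate 1, 8 with the processed signals, 8 with scaling to the median and 1 with scaling to the 75th percentile.

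Among genes of the cytosolic ribosome all calls were rises. From the array's descriptions, a group again chosen with values in view, 42 of 127 genes of the cytosolic 60S subunit and 23 of 92 of the 40S subunit rose, none fell and the other 85 and 69 were not called, and the group medians were 0.24 and 0.22. In the same way 11 of 33 nucleolar genes rose and 1 fell, led after FIB2 by OLI2 (8.68 and 8.70, then 9.54 and 9.46; 0.81 ± 0.09), NOP56 (0.74 ± 0.10) and NAP57 (0.69 ± 0.11), all of ribosome assembly. Of 23 chaperonin genes 12 rose (median 0.33), and of 56 DEAD/DEAH helicase genes 16 rose, led by AT5G54910 (0.75 ± 0.10), with no fall in either group. The 28 genes of organelle ribosomes had a median of 0.00286, with 2 rises and 1 fall.

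Calls in these groups depended on the scaling and on single channels. For 60S genes they numbered 6 without 10 min replicate 1, 15 without 10 min replicate 2, 12 without 30 min replicate 1, 4 with the processed signals, 5 with scaling to the median and 1 with scaling to the 75th percentile. For 40S genes the same settings gave 4, 7, 8, 4, 2 and 0. Over the 16 alternative settings the group median stayed between 0.23 and 0.28 for 60S genes and between 0.22 and 0.25 for 40S genes. Many ribosomal proteins are encoded by near-identical genes, whose probes may share transcripts.

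Of 26 tested genes of glucosinolate synthesis, which starts from methionine or from tryptophan, 10 rose and 2 fell, with a median of 0.24. BCAT4 (8.55 and 8.64, then 9.53 and 9.29; 0.82 ± 0.11) and IPMI1 (0.77 ± 0.11) lengthen the methionine chain, CYP79F1 (0.73 ± 0.18) and CYP83A1 (0.52 ± 0.11) build the core, AOP2 (0.69 ± 0.10) modifies the side chain, and MYB28 (0.63 ± 0.09) and MYB76 (0.42 ± 0.11) are regulators of the methionine-derived branch. The other rises were of SUR1 (0.56), BCAT3 (0.54) and SOT18 (0.47). CYP79F1 had disagreeing 10 min replicates, 9.23 and 9.96. The falls were of CYP83B1 (-0.79 ± 0.10) and CYP79B2 (-0.56 ± 0.11), of the tryptophan-derived branch. Without 10 min replicate 1 there were 7 rises, and with scaling to the 75th percentile no member was called.

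Stress and jasmonate genes moved both ways. Of 44 genes of touch and rapid stress 9 rose and 5 fell: the touch gene TCH3, a calmodulin-like protein, fell from 11.59 and 11.60 to 10.10 and 10.12 (-1.48 ± 0.09, adjusted p = 1.2e-06), TCH4, a xyloglucan enzyme, fell by 0.50, and TCH2, another calmodulin-like gene, rose by 0.55 ± 0.10. The zinc finger gene ZAT6 (0.81 ± 0.11) and MYB77 (0.59 ± 0.10) were the largest rises. Of 23 jasmonate genes 4 rose, among them VSP1 and VSP2 (0.49), and 4 fell, among them the repressor gene JAZ9 (TIFY7, -0.63 ± 0.10). Of 17 heat shock genes HSP18.2 rose (0.68) and HSFA7A (-0.70) and HSF4 (-0.38) fell.

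Of 29 expansins EXPB3 rose (0.52 ± 0.10) and the expansin-like genes EXLA1 (-0.46) and EXLA2 (-0.35) fell. Of 34 xyloglucan genes XTH8 rose (0.64 ± 0.10) and XTH6 (-0.53), TCH4 and XTH24 fell. None of 10 primary wall cellulose genes was called (CESA1 had the smallest p, -0.26, adjusted p = 0.14), and of 26 genes of secondary wall, xylem and fibre only 4CL1 was, falling by 0.49 ± 0.09. Of 13 genes of phloem and cambium 4 were called: the phloem lectin gene PP2-A1 (-0.49) and CalS7 (-0.33) fell, and PXY (0.43), a receptor kinase of the cambium, and REV (0.54), a homeodomain factor of vascular patterning, rose. Among 25 epidermal genes LTP4 rose (0.63) and the wax exporter gene CER5 (ABCG12, -0.47) fell, among 8 flower genes SHP1 (0.49) and LFY rose, and none of 9 reference genes was called, ACT2 having a mean of 14.02 at 10 min and values of 13.66 and 14.02 at 30 min (-0.18 ± 0.12, adjusted p = 0.35). PXY and LFY were each called in 8 of 16 alternative settings.

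**Figure D3:**
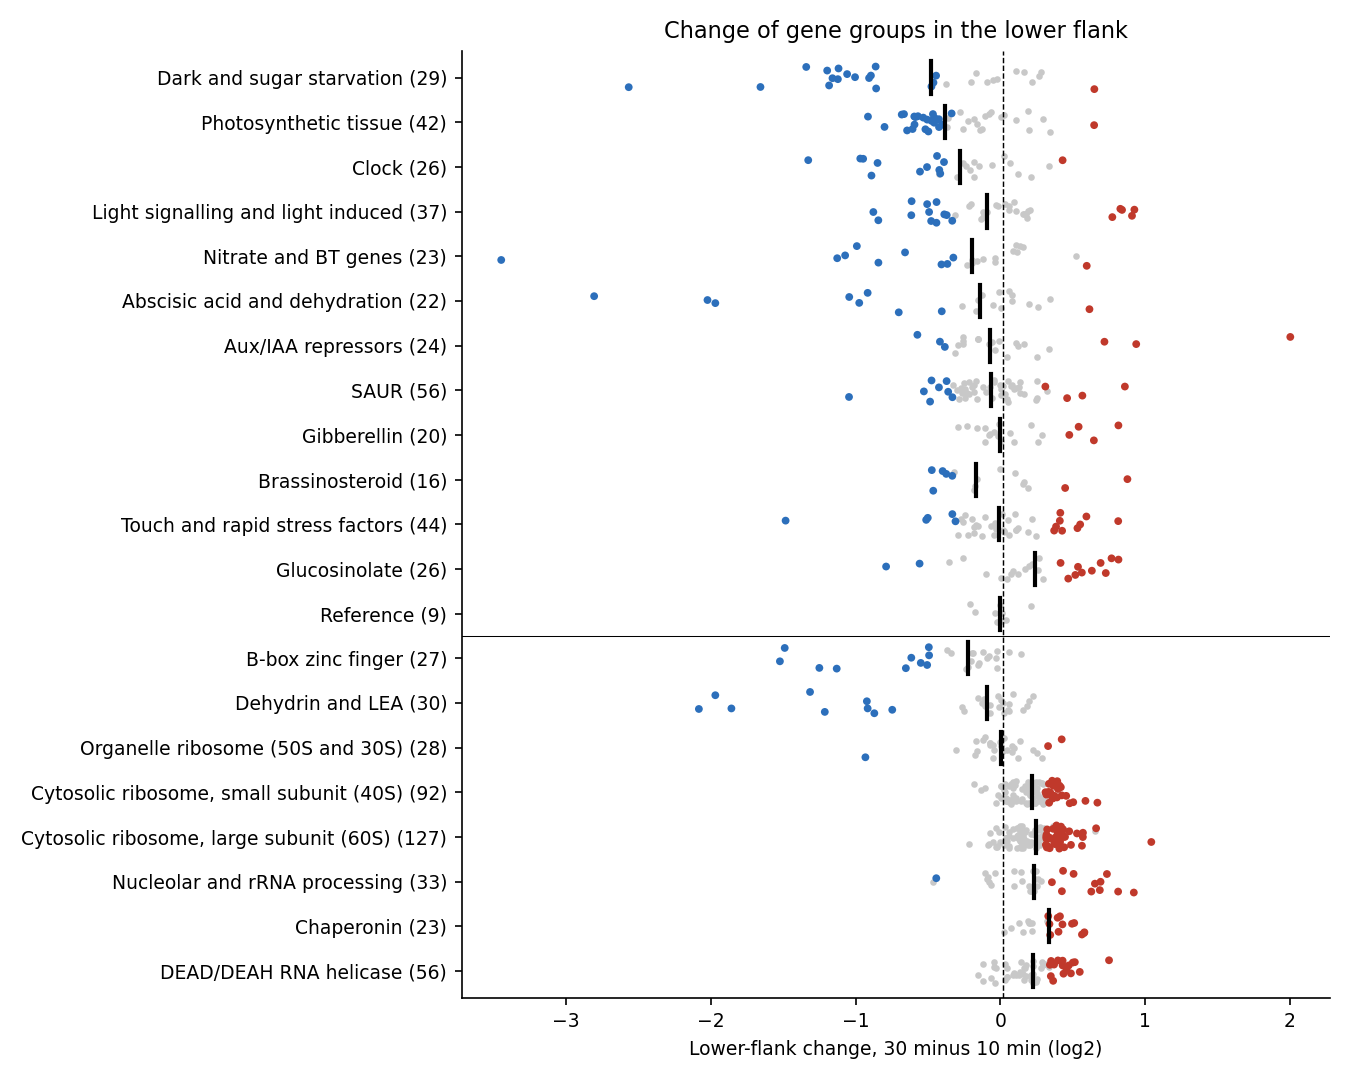
Change from 10 to 30 min in the lower flank (horizontal axis, log2) of each tested gene of 13 gene lists (above the line) and of 8 groups taken from the array's descriptions (below it). Red points are called rises, blue points called falls, grey points were not called, black bars are group medians and the dashed line is the median of all genes; the starvation and photosynthesis lists have medians of -0.48 and -0.39, and the 60S and 40S groups 0.24 and 0.22.

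The upper flank of the same stems, read in the other colour of the same arrays, gave 457 rises and 668 falls among 17962 genes (6.26% called). Because both colours of an array share its hybridization and its stems, likeness between the flanks is not independent. Of the 114 falls of at least 2-fold in the lower flank 110 were called lower in the upper flank too, with a median change of -1.27 there and of -1.13 in the upper flank, and of the 10 such rises 6 were called higher. ERD7 changed by -2.63 in the upper flank, SEN1 by -2.56, LTI78 by -1.85, ASN1 by -1.91, RVE1 by -1.06, NIMIN1 by 1.19 and AT5G37970 by 1.51. The starvation list had a median of -0.48 in either flank, the clock list -0.28 in either, glucosinolate genes 0.24 (lower) and 0.38 (upper), and photosynthesis genes -0.39 and -0.20.

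Whether the change with time differed between the flanks was tested on the ratios of lower over upper flank. Of 18167 genes 23 were called (0.127%), 19 with a lower-flank change above that of the upper flank and 4 with one below, while 2318 had an unadjusted p under 0.05. Of the 2578 genes called in the lower flank 15 were called for this difference, 2 of the 10 largest rises (IAA5 and AT5G66580) and 1 of the 114 largest falls (BT2). In this fit, which had no replicate block, no member of the starvation, clock, light, photosynthesis, abscisic acid or glucosinolate lists was among them. Members of these lists called with the block are not counted here. Without the block, a gene's dye difference, of opposite sign in the ratios of replicates 1 and 2, counts as spread. The absence of calls therefore does not show that these lists changed alike in both flanks. The number of calls rested on the fit: it was 3452 above and 3455 below with a replicate block (here also a dye block), and 0 when the ratios of an array were centred on the array's median instead of by loess; leaving out any 1 array gave 105 to 162 above and 133 to 236 below. All 23 kept their direction in these settings, although the block cannot change it where every array has a value.

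Among the 19 genes whose lower-flank change was above that of the upper flank, 10 rose, 2 fell and 7 were not called in the lower flank, whereas in the upper flank 16 fell, none rose and 3 were not called. IAA5 is one of those 3: its upper-flank level was 7.59 and 7.64 at 10 min and 7.62 and 7.28 at 30 min (-0.17, adjusted p = 0.44), and the flanks differed in change by 2.17 ± 0.05 (adjusted p = 0.0034). IAA6 (lower 0.94, upper 0.04) and SAUR25 (lower 0.86, upper -0.34) are the others. For HAT2 (0.52 and -0.66), SAUR19 (0.57 and -0.70), AT5G02760 (0.66 and -0.54) and AT5G66580 (1.31 and -0.43) the lower flank rose and the upper flank fell. SAUR66 (AT1G29500) had 0.02 in the lower flank (adjusted p = 0.93) and fell by 1.08 in the upper flank.

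In the other direction, BT2 changed by -3.45 in the lower flank and by -2.51 in the upper one (upper levels 11.28 and 11.34, then 8.76 and 8.83), a difference of -0.93 ± 0.06 (adjusted p = 0.022). NIA1, which makes nitrite from nitrate, fell in the lower flank (-0.33) and rose in the upper flank (0.37). AT1G79160 likewise had -0.37 and 0.49, and AT1G78170 had -0.03 in the lower flank and 1.15 in the upper. ACS4, which rose by 1.13 in the lower flank and had -0.16 in the upper, did not pass the test of the difference (1.29, adjusted p = 0.15).

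**Figure D4:**
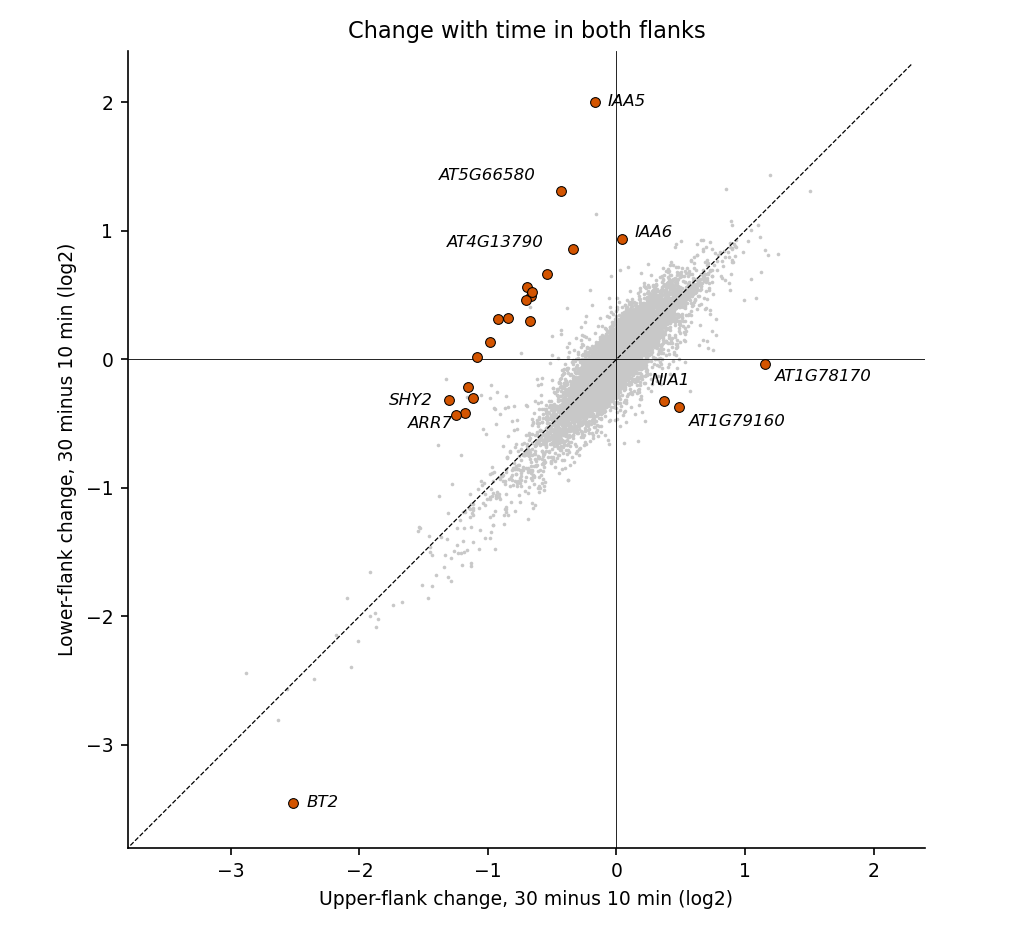
Change from 10 to 30 min in the lower flank against that in the upper flank of the same stems (both axes log2), for each gene tested in both. Orange points are genes called for a difference between the flanks and the dashed line marks equal change; IAA5 lies at 2.00 (lower) and -0.17 (upper), and BT2 at -3.45 and -2.51.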

How the data were processed

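Agilent Feature Extraction 8.1.1.1 read the 2-colour arrays, per the file headers. From its output the deposited intensity of each spot (mean brightness) and of its surroundings (median local background) was taken. The deposited processed intensity (background-subtracted, dye-normalized per the file headers), the deposited log10 ratio of Cy5 over Cy3, and the authors' deposited series table of ratios served as alternatives. That table's columns equal log10 of lower over upper flank: replicate 1 columns match the deposited log10 ratios within 0.003, replicate 2 columns those of the processed signals (correlation 0.999999), with medians of 0, -0.00116, 0 and -0.00244. Background, saturation and outlier spots came from deposited flags (other units, 0 or 1).

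Background was corrected with normexp (offset 50), ratios by loess with the 1075 control spots at weight 0, and brightness between arrays by Aquantile, in limma 3.58.1 (R 4.3.3). Outlier spots (120 to 451 an array) were left out. Of 21500 gene probes 20269 named 1 locus; 20137 of 20219 loci were in a RefSeq gene table used for symbols only. A gene was its brightest probe, tested if well above background on both lower-flank channels of a time; 53 called genes lacked a value. The 4 channels were fitted with lmFit and eBayes without a block; the smallest exact permutation p of 2 against 2 is 0.333. Alternatives were a replicate block, other background corrections, scalings, filters and probe rules, a separate-channel fit and each channel left out. The ratio fit gave the difference between flanks. Each array lay on its own slide and all were scanned on 1 day.

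Members and lists were chosen with earlier results of these data known. The 29 lists held 737 genes, 652 tested; 46 symbols matched no single gene and 9 matched another. Named were the 15 largest called rises and falls with groups apart, up to 6 called members of a list (else the smallest p), up to 8 genes per direction called between flanks, and IAA5, SAUR19, HAT2, PIN3 and ACT2; other members are named beside these as their subfamily or after values were seen. Replicate numbers did not pair the channels: their deviations correlated at -0.129 over genes. Tested on simulated data over 17677 genes, the fit recovered 51 of 100 changes of 0.5 and 100 of 100 of 1 on the log2 scale, with 16 false calls. Only 100 genes of each size changed there, against 2578 called here, so recovery and false calls may differ in these data.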

Additional observations from a re-analysis of the deposited data

Results flagged for a closer look

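In 23 genes the change from 10 to 30 min differed between the lower and the upper flank by limma's test of that difference. The lower-flank change minus the upper-flank change was 2.17 for IAA5, 0.90 for IAA6 and 0.98 for SHY2 (IAA3), all Aux/IAA repressors. Among SAUR genes it was 1.26 for SAUR19, 1.12 for SAUR20, 1.15 for AT5G18030, 1.23 for SAUR22, 1.16 for SAUR23, 1.17 for SAUR24, 1.2 for AT4G13790, 0.94 for SAUR63 and 1.1 for AT1G29500. Other regulators were HAT2 with 1.18, the phosphatase gene AT5G02760 with 1.2, the F-box gene AUF1 with 0.97, MAKR6 with 0.81 and the cytokinin response regulator ARR7 with 0.76. AT5G66580 had 1.74 and AT1G67900 had 0.82.

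The difference was below 0 for 4 genes: -1.19 for AT1G78170, -0.93 for BT2, -0.85 for AT1G79160 and -0.69 for NIA1. With 2 channels per flank and time, no group was large enough to look for a channel far from the others.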

How the results depend on the processing

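All 2578 calls of the lower flank kept their direction in each of the 16 alternative settings in which they were tested. Much of this was fixed in advance. The 2525 calls with a value in every channel had groups apart, so leaving out a channel could reverse them only through the renewed scaling. A replicate block or crossed pairing left the change of these genes as it was. Rises and falls numbered 411 and 791 when Feature Extraction's processed signals were used, 17 and 162 with the 75th percentile, and 249 and 441 with the median of each channel; leaving out 1 channel gave 331 to 1534 rises and 618 to 1624 falls. The other planned settings kept both counts within 1.5 times. With the replicate block, which is also the dye, 1141 rose and 1397 fell, 2296 genes shared with the calls without it. In that fit limma gave all genes a common variance, so a gene's own replicate spread did not enter its p-value. A crossed pairing, chosen after seeing the data, called 1963 rises and 2044 falls. Rises of at least 2-fold with groups apart numbered 25 with a normexp offset of 16, 65 with the processed signals (253 falls) and 8 to 34 without 1 channel.

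List members called numbered 115 with the processed signals, 32 with the 75th percentile and 87 with the median, and 109 to 201 without 1 channel, against 190; members of the description groups 54, 20, 43 and 52 to 163, against 151. Of 139 named genes called 44 remained called with the 75th percentile and 87 with the median.

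In the upper flank the replicate block gave 826 rises, and leaving out 1 channel 132 to 1598 rises and 333 to 1716 falls. For the difference between flanks the replicate block gave 3452 above and 3455 below, processed signals 9 above, the authors' table of ratios 2 above and 0 below, and median-centred ratios 0 and 0; leaving out 1 array gave 105 to 162 and 133 to 236. The causes were not tested.

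List medians near 0 changed sign in some settings: gibberellin in 5, xyloglucan in 9, reference in 5, organelle ribosome in 6 and touch in 2. A slide block was not run because each slide held 1 array. Leaving out a channel leaves 1 at that time, assumed to vary like the others. The number of arrays limits precision, and 3 called genes were not well above background on either 10 min array, 1 on either 30 min array.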
